A study of Homo sapiens with 8 samples.

Results

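A chosen list of 42 genes of lysosomes and autophagy is described here by name. Among them are transcription factors of the pathway, lysosomal enzymes and membrane proteins, and proteins that build, load and fuse autophagosomes. The 42 genes were taken from the table of normalized counts by gene symbol alone in all 8 libraries. All 42 were found among 57603 entries with a distinct identifier. Of these, 41 reached a mean normalized count of 10 and were tested. The other was CLN3, a lysosomal membrane protein, which had a mean of 7.59 and was tested only in an alternative with no filter.

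Lysosomes are acidic compartments in which hydrolases break down proteins, glycans and lipids, and autophagy delivers the cell's own material to them inside a double membrane. The ATG8 family of small proteins is attached to that membrane, where cargo receptors hold on to what is to be degraded. Many of these genes are driven by TFEB, TFE3 and MITF, transcription factors of the MiT/TFE family that bind an E-box in promoters. ABBV-075 is an inhibitor of BET bromodomains, which read acetylated histones.

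The study used 22Rv1, a human prostate cancer cell line, carrying a transgene for either GFP or HNF4G, a nuclear receptor of the gastrointestinal lineage, under the MSCV promoter, which was meant to make expression independent of BET proteins. The cells were given ABBV-075 at 25 nM or its solvent DMSO for 24 h, and poly-A RNA was sequenced. The 4 groups, named by transgene and treatment, were GFP-DMSO and HNF4G-DMSO, and GFP-ABBV-075 and HNF4G-ABBV-075, each with 2 libraries called number 1 and number 2. Whether each cell line was a pool or a clone, and whether the 2 libraries came from separate cultures, was not given, so p-values rest on a spread between libraries that may be technical only.

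The libraries held between 31508275 and 40262678 reads. HNF4G had normalized counts of 10109 and 12104 in the HNF4G-DMSO libraries and 43972 and 34116 in the HNF4G-ABBV-075 libraries, all above its counts in GFP cells, 1088 and 993 without and 206 and 213 with the drug. HEXIM1, which is commonly raised by BET inhibitors, was higher with ABBV-075 in both cell lines (log2 1.80 and 1.90), and MYC was lower (-2.62 and -2.43). All 9 prostate luminal and epithelial markers were present, with summed levels of 127723 to 128574 (GFP-DMSO), 118494 to 119467 (GFP-ABBV-075), 97317 to 106263 (HNF4G-DMSO) and 103478 to 110567 (HNF4G-ABBV-075) normalized counts. Of these, with the drug KLK3 was lower in GFP and HNF4G cells (log2 -2.40 and -3.01), as were KLK2 (-1.68 and -2.03) and EPCAM (-0.46 and -0.47), and FOLH1 was higher (0.45 and 0.58). KLK3 and KLK2 were also lower in HNF4G than in GFP cells in DMSO (-1.81 and -1.13). The 8 macrophage markers each had a mean under 10, with MARCO at 0 in every library and sums of 11.6 to 25.3 (GFP-DMSO), 12.7 to 32.0 (GFP-ABBV-075), 13.8 to 16.5 (HNF4G-DMSO) and 12.4 to 17.5 (HNF4G-ABBV-075) normalized counts. Of 7 fibroblast and endothelial markers, 4 had a mean under 10 and CDH5 was at 0, and their summed level, mostly LUM, was 1496 to 1504, 365 to 371, 1155 to 1195 and 310 to 315 in the same order. The part of these markers in the results was not tested. HNF4G-DMSO number 2 and HNF4G-ABBV-075 number 1 stood apart, with a read-weighted mean GC content of transcripts of 46.3% against 47.4% to 47.9% in the other 6 libraries, so results that rest on these 2, called the low-GC pair, are given with and without them.

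In GFP cells, ABBV-075 raised 13 of the 41 genes and lowered 3. The rises were led by BNIP3L, a mitophagy receptor, and NEU1, the lysosomal sialidase, and the falls by ATG9B, a relative of the ATG9A scramblase of early autophagosomes. A gene was called where limma gave a Benjamini-Hochberg adjusted p under 0.05 over 17876 genes. Over all those genes 14.2% were called higher and 19.2% lower, against 31.7% and 7.32% of the 41. The median log2 change was 0.27 for the 41 genes and -0.01 for all genes, and 31 of the 41 changes lay above 0. Changes here and below are differences of log2(normalized count + 1), ABBV-075 minus DMSO with the SE after ±, and this scale understates the change of low genes. Where 2 changes stand together, that of GFP cells comes first. Levels given per library are normalized counts. In bulk RNA, fewer cells of a type and less RNA per cell cannot be told apart, and a shift of the whole transcriptome is not visible in values scaled per library. Leaving out the low-GC pair gave 26 genes higher and 8 lower, where 28.8% and 31.2% of all genes were called.

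In HNF4G cells, 12 of the 41 genes rose and 2 fell with ABBV-075, against 12.9% and 18.3% of all genes. The median change was 0.33, with 0.02 over all genes, and 32 of the 41 changes lay above 0. Without the low-GC pair, which leaves 1 library in each HNF4G group that is then assumed to vary like the GFP groups, 23 were called higher and 5 lower, where 22.3% and 25.3% of all genes were called. The median was then 0.36, but without HNF4G-ABBV-075 number 2 it was 0.16. There were 11 genes called higher in both cell lines (NPC1, CTSB, NEU1, PSAP, NPC2, MAP1LC3B, GABARAPL2, BNIP3L, OPTN, WIPI1 and VMP1), 2 called lower in both (CTSZ and ATG9B), and 24 called in neither.

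**Figure D1:**
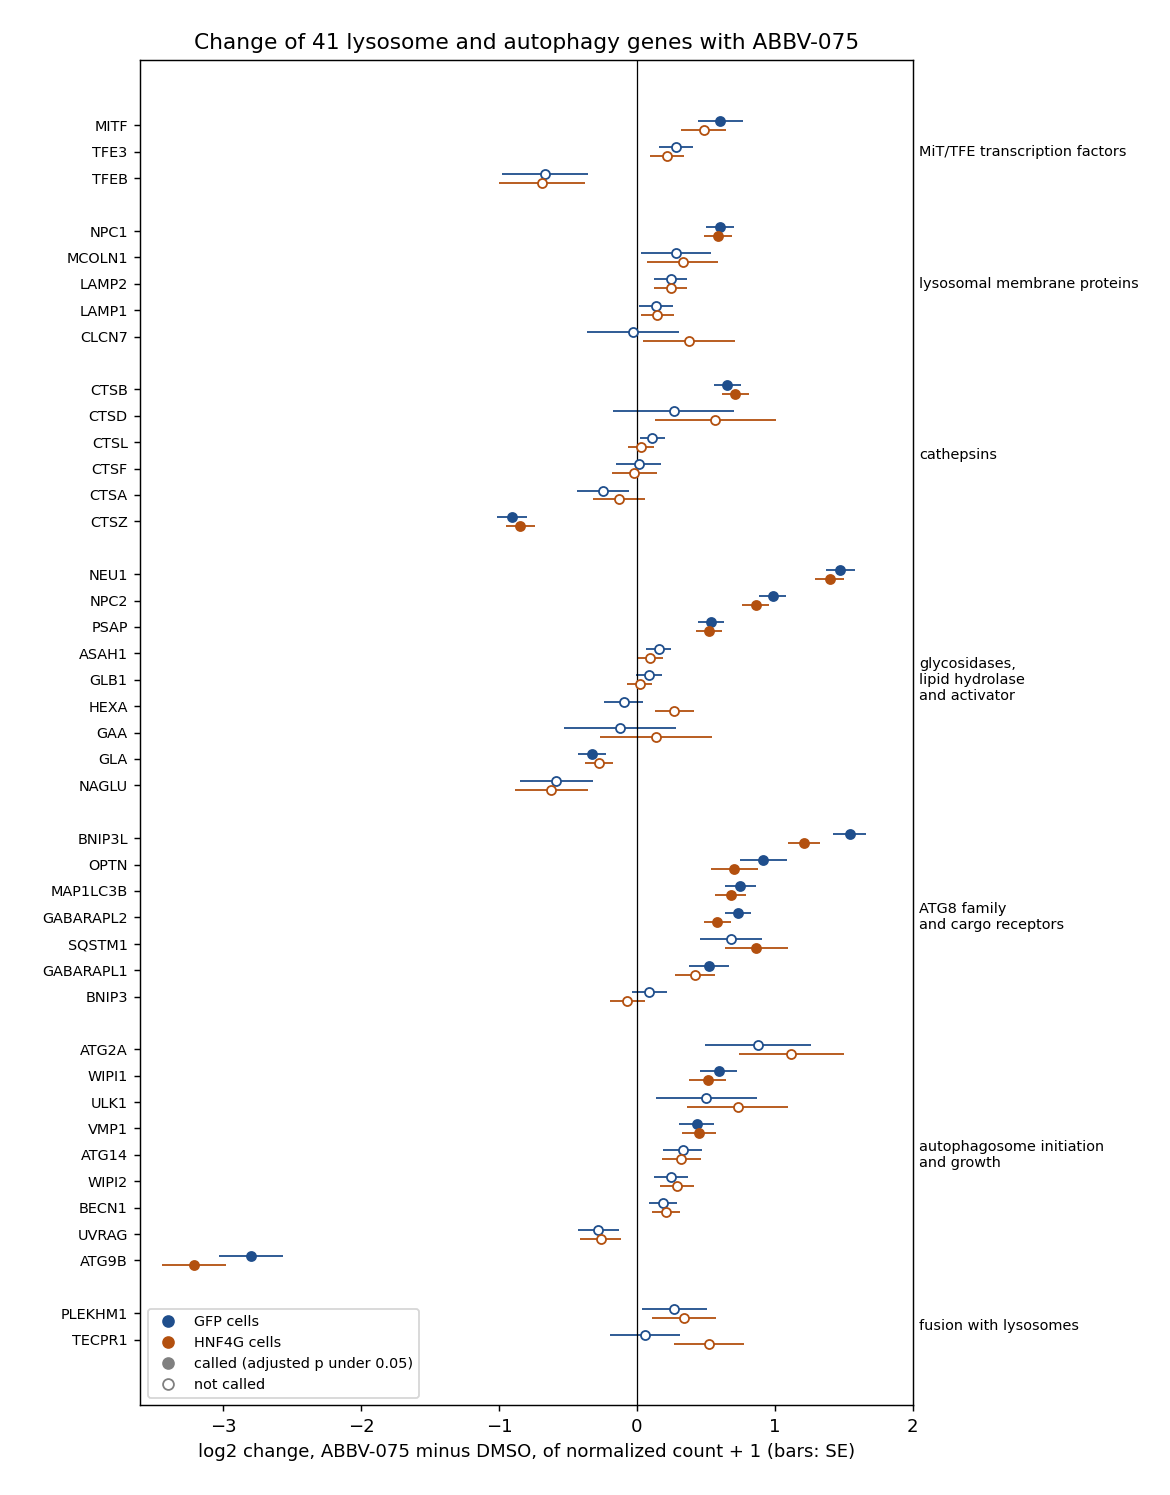
Log2 change with ABBV-075 of the 41 tested genes in GFP cells (blue) and HNF4G cells (orange), grouped by role, with the standard error as bars and filled points for genes called at an adjusted p under 0.05. NEU1 and BNIP3L lie farthest right, above 1 in both cell lines, and ATG9B farthest left, at -2.80 and -3.21.

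Groups of 2 libraries often do not overlap. In GFP cells, both ABBV-075 libraries lay above both DMSO libraries for 29 genes (38.4% of all genes) and below them for 8 (40.6%). In HNF4G cells this held for 21 (28.5%) and 3 (30.6%). The shares of the 41 genes were 70.7% and 19.5% in GFP cells and 51.2% and 7.32% in HNF4G cells.

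Of the MiT/TFE factors, MITF rose in GFP cells, and TFEB and TFE3 were not called in either cell line. TFEB (ENSG00000112561, GRCh38 chromosome 6, 41683978 to 41736259, minus strand) was 482 and 435 in the GFP-DMSO libraries, 243 and 341 in the GFP-ABBV-075 libraries, 363 and 235 in the HNF4G-DMSO libraries and 136 and 241 in the HNF4G-ABBV-075 libraries. Both ABBV-075 libraries lay below both DMSO libraries in GFP cells, while in HNF4G cells the groups overlapped. The change was -0.67 ± 0.31 (SE; adjusted p = 0.14) in GFP cells and -0.69 ± 0.31 (adjusted p = 0.13) in HNF4G cells, and neither was called. Without the low-GC pair the values were -0.67 ± 0.14 (adjusted p = 0.00077) and -0.59 ± 0.19 (adjusted p = 0.022), and both were.

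MITF (ENSG00000187098) was 318 and 314 in the GFP-DMSO libraries, 524 and 442 in the GFP-ABBV-075 libraries, 272 and 337 in the HNF4G-DMSO libraries and 468 and 386 in the HNF4G-ABBV-075 libraries, with no overlap between treatments in either cell line. It rose in GFP cells by 0.60 ± 0.16 (adjusted p = 0.024) and was 0.49 ± 0.16 (adjusted p = 0.055) in HNF4G cells. The call in GFP cells was lost without any 1 of the 4 GFP libraries (adjusted p up to 0.17). TFE3 (ENSG00000068323) was 843 and 779.9 in the GFP-DMSO libraries, 965 and 1012 in the GFP-ABBV-075 libraries, 855 and 763 in the HNF4G-DMSO libraries and 876 and 1012 in the HNF4G-ABBV-075 libraries. Its ABBV-075 libraries all lay above its DMSO libraries, with changes of 0.29 ± 0.12 (adjusted p = 0.11) and 0.22 ± 0.12 (adjusted p = 0.21), neither called. Without the low-GC pair TFE3 was called in GFP cells (0.29 ± 0.07, adjusted p = 0.0033) and MITF in both lines (0.60 ± 0.11 and 0.50 ± 0.15).

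MiT/TFE factors bind the E-box CACGTG, which MYC and other basic helix-loop-helix proteins also bind. Promoters from 250 bases before to 50 after the start were matched in RefSeq (GRCh38.p14) for 34 of the 42 genes, and CACGTG, which reads the same on both strands, was found in 11 of them (32.4%), against 7.43% of 27305 promoters. TCACGTG on either strand, which contains it, was in 10 (29.4%, against 3.82%), and the palindrome TCACGTGA in 5 (14.7%, against 1.04%). NEU1 was the single E-box gene called in a drug comparison by the limma fit of all 8 libraries used above, without GC correction. Other settings called more of them, as given below. The windows shown are those of NEU1 and of 3 other lysosomal genes, with the E-box in capitals. With GC correction 2 of those 3, LAMP1 and MCOLN1, were called higher in both cell lines.
NEU1, chr6:31862930-31862959, minus strand: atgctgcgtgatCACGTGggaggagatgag
GAA, chr17:80101538-80101567, plus strand: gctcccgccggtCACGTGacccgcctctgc
MCOLN1, chr19:7522571-7522600, plus strand: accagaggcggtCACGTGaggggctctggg
LAMP1, chr13:113297199-113297228, plus strand: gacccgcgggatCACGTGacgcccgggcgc

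Of the 11 genes with an E-box in the window, 10 were tested (not CLN3). In GFP cells 1 was called higher and none lower, with a median change of 0.11 and a range of -0.25 to 1.48. Of the 23 without one, 9 were called higher and 3 lower, with a median of 0.43. In HNF4G cells the counts were 1 and 0 of 10 against 8 and 2 of 23, with medians of 0.24 and 0.45. Over all genes 14.2% were called higher and 19.2% lower in GFP cells, and 12.9% and 18.3% in HNF4G cells. The 1 of 10 lies near the share of all genes called higher. The counts of both sets moved with the processing. With GC correction, 5 of the 10 with an E-box were called higher in GFP cells (ATG14, CTSD, LAMP1, MCOLN1 and NEU1) and 6 in HNF4G cells (the same 5 and CLCN7), none lower, against 19 and 4 of 23 and 16 and 3 of 23 without one. Over all genes 31.1% and 24.0% were then called in GFP cells, and 30.7% and 23.7% in HNF4G cells. When the low-GC pair was left out, the E-box genes had 5 higher and 2 lower in GFP cells, against 16 and 4. Of all genes 28.8% and 31.2% were called there. In HNF4G cells, with 1 library left in each group, the medians were 0.21 with an E-box and 0.37 without one. GAA, acid alpha-glucosidase, changed by -0.12 ± 0.41 and 0.14 ± 0.41, MCOLN1, a calcium channel of the lysosome, by 0.29 ± 0.25 and 0.33 ± 0.25, and LAMP1, an abundant protein of the lysosomal membrane, by 0.14 ± 0.12 and 0.15 ± 0.12. These are descriptions of a window and not of a binding site.

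ATG8 family members and cargo receptors held the most calls of any role, 5 of 7 higher and none lower in each cell line, with median changes of 0.73 and 0.68. The share called higher was 71.4% in each line, against 14.2% of all genes in GFP cells and 12.9% in HNF4G cells. BNIP3L (ENSG00000104765), a receptor on the outer mitochondrial membrane that binds ATG8 proteins, was 3287 and 3249.8 in the GFP-DMSO libraries, 9727 and 9329 in the GFP-ABBV-075 libraries, 4237 and 4945 in the HNF4G-DMSO libraries and 11619.5 and 9695 in the HNF4G-ABBV-075 libraries. Every ABBV-075 library lay above every DMSO library. The rise was 2.91-fold in GFP cells (log2 1.54 ± 0.12, adjusted p = 0.0001) and 2.32-fold in HNF4G cells (1.21 ± 0.12, adjusted p = 0.00031). Its relative BNIP3 was not called, at 0.09 ± 0.13 and -0.07 ± 0.13; 44 pseudogenes of BNIP3 had a summed mean of 117 normalized counts, which could share its reads.

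MAP1LC3B, which encodes LC3B, was 3608 and 3503 in the GFP-DMSO libraries, 5937 and 6026 in the GFP-ABBV-075 libraries, 3496 and 3780.3 in the HNF4G-DMSO libraries and 6414 and 5299 in the HNF4G-ABBV-075 libraries. It was higher with ABBV-075 in every library, by 0.75 ± 0.11 (adjusted p = 0.0018) and 0.68 ± 0.11 (adjusted p = 0.0031). GABARAPL2, of the GABARAP branch of the family, was 4560.1 and 4432 in the GFP-DMSO libraries, 7399 and 7552 in the GFP-ABBV-075 libraries, 4061 and 4433 in the HNF4G-DMSO libraries and 6725 and 6021 in the HNF4G-ABBV-075 libraries. It rose by 0.73 ± 0.10 (adjusted p = 0.001) and 0.58 ± 0.10 (adjusted p = 0.0031), again with no overlap. GABARAPL1, of the same branch, rose by 0.52 ± 0.15 in GFP cells (adjusted p = 0.028) and was 0.42 ± 0.15 in HNF4G cells (adjusted p = 0.063). Its call was lost without GFP-DMSO number 1, GFP-DMSO number 2 or GFP-ABBV-075 number 2 (adjusted p up to 0.21).

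SQSTM1 encodes p62, the receptor for ubiquitin-marked cargo. It was 2248 and 2339.6 in the GFP-DMSO libraries, 3743 and 3623 in the GFP-ABBV-075 libraries, 2489 and 1773 in the HNF4G-DMSO libraries and 3024 and 4844 in the HNF4G-ABBV-075 libraries. Its 2 HNF4G libraries of each treatment lay far apart, yet every ABBV-075 library was above every DMSO library of its line. The change was 0.68 ± 0.23 (adjusted p = 0.051, not called) in GFP cells and 0.87 ± 0.23 (adjusted p = 0.023) in HNF4G cells, where the call was lost without HNF4G-DMSO number 2 (0.62, adjusted p = 0.11) and without HNF4G-ABBV-075 number 2 (0.53, adjusted p = 0.055). Exons of MRNIP lie on the opposite strand over 1582 bases of SQSTM1, and MRNIP changed by 0.75 and 0.73. The strand setting of the counting was not given, so the reads of such pairs cannot be told apart. An expressed partner of this kind, with a mean of at least 10, was annotated for 16 of the 42 genes, 10 of them called with ABBV-075 in a cell line.

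OPTN (ENSG00000123240, chromosome 10) encodes optineurin, a receptor for damaged mitochondria and bacteria, and was the single gene called between the cell lines. It was 27.1 and 27.3 in the GFP-DMSO libraries, 56.2 and 48.4 in the GFP-ABBV-075 libraries, 121 and 124 in the HNF4G-DMSO libraries and 214 and 187 in the HNF4G-ABBV-075 libraries. The 4 groups did not overlap, and from lowest to highest they were the GFP cells without and with the drug, then the HNF4G cells without and with it. HNF4G cells exceeded GFP cells 4.38-fold in DMSO (log2 2.13 ± 0.17, adjusted p = 0.0021) and 3.79-fold in ABBV-075 (1.92 ± 0.17, adjusted p = 0.0014). With ABBV-075 it rose by 0.92 ± 0.17 in GFP cells (adjusted p = 0.0049) and 0.71 ± 0.17 in HNF4G cells (adjusted p = 0.016). The latter call was lost without either HNF4G-DMSO library or HNF4G-ABBV-075 number 1 (adjusted p up to 0.07) and without the low-GC pair (0.62, adjusted p = 0.098).

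**Figure D2:**
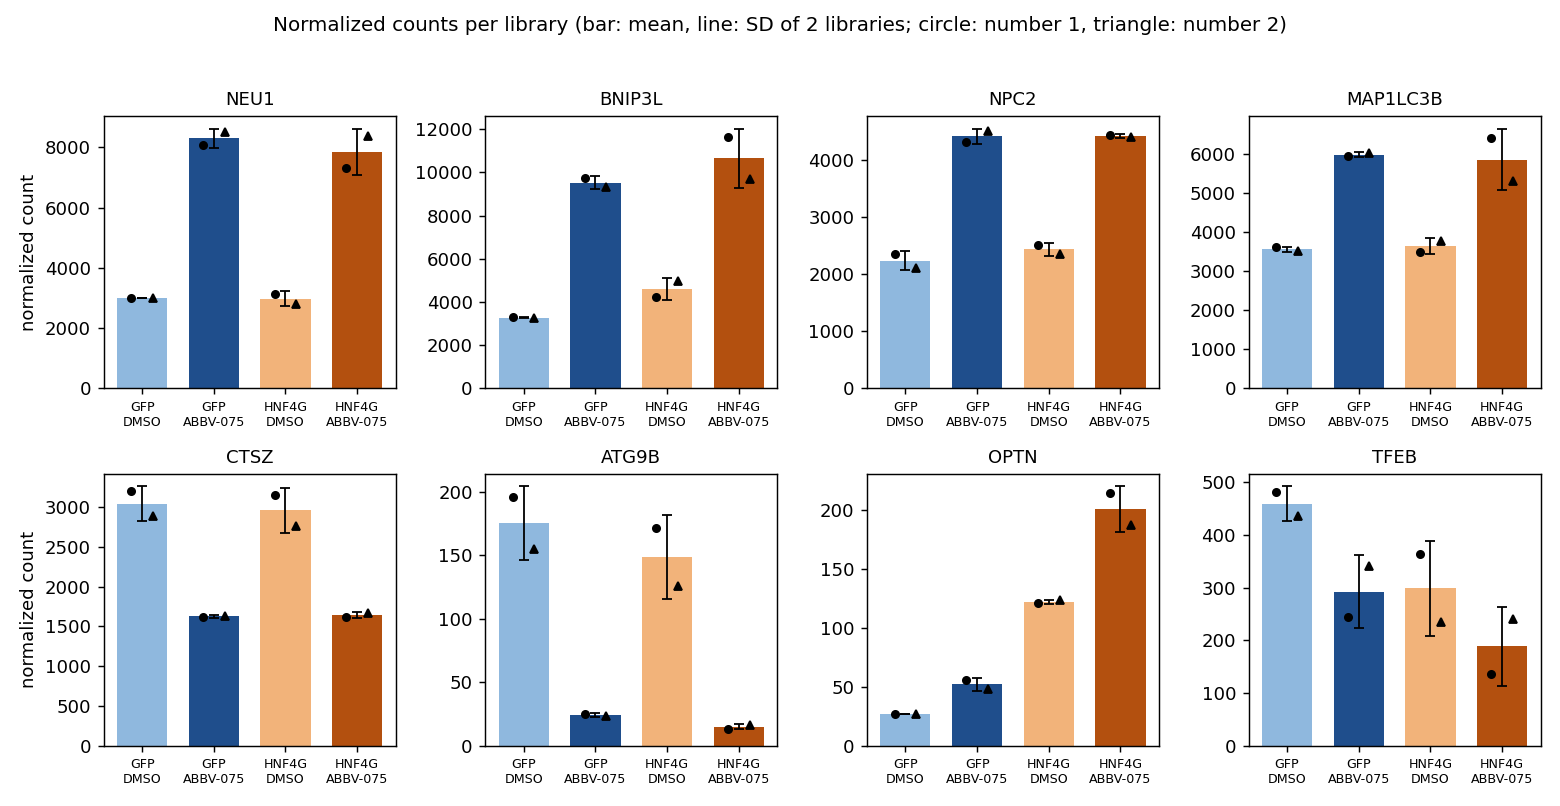
Normalized counts (linear axes from 0) of 8 genes in each library, with the group mean as a bar, the SD of 2 libraries as a line, number 1 as a circle and number 2 as a triangle. NEU1, BNIP3L, NPC2 and MAP1LC3B are higher and CTSZ and ATG9B lower in every ABBV-075 library, OPTN is higher in HNF4G cells, and the TFEB libraries of the HNF4G groups overlap.

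Among the 9 genes of autophagosome initiation and growth, 2 were called higher (22.2%) and 1 lower (11.1%) in each cell line. Over all genes these shares were 14.2% and 19.2% in GFP cells and 12.9% and 18.3% in HNF4G cells. ATG9B (ENSG00000181652, chromosome 7), whose relative ATG9A brings lipid to the growing membrane, was 195 and 155 in the GFP-DMSO libraries, 25.3 and 23.1 in the GFP-ABBV-075 libraries, 172 and 125 in the HNF4G-DMSO libraries and 13.6 and 16.5 in the HNF4G-ABBV-075 libraries. All 4 ABBV-075 libraries lay far below all 4 DMSO libraries. It fell 6.94-fold in GFP cells (log2 -2.80 ± 0.23, adjusted p = 0.00014) and 9.25-fold in HNF4G cells (-3.21 ± 0.23, adjusted p = 0.00011). The gene shares 786 exonic bases with NOS3, endothelial nitric oxide synthase, on the opposite strand. NOS3 was 978 and 902 in the GFP-DMSO libraries, 193 and 205 in the GFP-ABBV-075 libraries, 811 and 508 in the HNF4G-DMSO libraries and 108 and 215 in the HNF4G-ABBV-075 libraries, and it changed by -2.23 and -2.07.

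WIPI1, a phosphoinositide binder of the nascent autophagosome, rose by 0.60 ± 0.13 (adjusted p = 0.012) and 0.51 ± 0.13 (adjusted p = 0.022), and VMP1, an endoplasmic reticulum scramblase, by 0.43 ± 0.13 (adjusted p = 0.03) and 0.45 ± 0.13 (adjusted p = 0.029). Both are calls near the threshold. WIPI1 lost its call in GFP cells without GFP-DMSO number 2 or either GFP-ABBV-075 library (adjusted p up to 0.1) and in HNF4G cells without either HNF4G-DMSO library or HNF4G-ABBV-075 number 1 (up to 0.084). VMP1 lost it in GFP cells without any 1 of the GFP libraries (up to 0.17) and in HNF4G cells without any 1 library other than HNF4G-ABBV-075 number 2 (up to 0.12).

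The other 6 were not called. ATG2A, a lipid transfer protein, had the largest change among them. It was 684 and 791 in the GFP-DMSO libraries, 1346 and 1359.9 in the GFP-ABBV-075 libraries, 799 and 433 in the HNF4G-DMSO libraries and 857 and 1911 in the HNF4G-ABBV-075 libraries. The GFP groups were apart and the libraries within each HNF4G group differed by a large factor, and the change was 0.88 ± 0.38 (adjusted p = 0.11) and 1.12 ± 0.38 (adjusted p = 0.058). ULK1, the kinase that starts autophagy, was 1556 and 1556 in the GFP-DMSO libraries, 2192 and 2224 in the GFP-ABBV-075 libraries, 1428 and 799 in the HNF4G-DMSO libraries and 1196 and 2629 in the HNF4G-ABBV-075 libraries, with changes of 0.50 ± 0.37 and 0.73 ± 0.37. In HNF4G cells, the ABBV-075 and DMSO libraries of ULK1 overlapped. With the pair left out ATG2A was at 0.88 ± 0.08 and 1.26 ± 0.11 and ULK1 at 0.50 ± 0.05 and 0.88 ± 0.08, all called. BECN1, ATG14 and UVRAG, subunits of the autophagy lipid kinase complexes, changed by 0.19, 0.33 and -0.28 in GFP cells, and WIPI2 by 0.25.

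Of 9 glycosidases and lipid-handling proteins of the lysosome, 3 rose in both cell lines (33.3%, against 14.2% and 12.9% of all genes). NEU1 (ENSG00000204386, chromosome 6, minus strand), which removes sialic acid from glycoproteins, was 2981 and 2980.04 in the GFP-DMSO libraries, 8079 and 8519.5 in the GFP-ABBV-075 libraries, 3142 and 2805 in the HNF4G-DMSO libraries and 7298 and 8389 in the HNF4G-ABBV-075 libraries. Every ABBV-075 library lay far above every DMSO library. It rose 2.78-fold in GFP cells (log2 1.48 ± 0.11, adjusted p = 8.4e-05) and 2.64-fold in HNF4G cells (1.40 ± 0.11, adjusted p = 0.00012).

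NPC2, which binds cholesterol in the lysosomal lumen, was 2343 and 2107 in the GFP-DMSO libraries, 4308 and 4497 in the GFP-ABBV-075 libraries, 2511 and 2342 in the HNF4G-DMSO libraries and 4431 and 4387 in the HNF4G-ABBV-075 libraries. The groups did not overlap, and NPC2 rose by 0.99 ± 0.10 (adjusted p = 0.00029) and 0.86 ± 0.10 (adjusted p = 0.00061). PSAP, the precursor of the saposins that activate sphingolipid hydrolases, was 18432 and 18743 in the GFP-DMSO libraries, 26822 and 27265 in the GFP-ABBV-075 libraries, 18960.3 and 16491 in the HNF4G-DMSO libraries and 24106 and 26826 in the HNF4G-ABBV-075 libraries. It rose by 0.54 ± 0.09 (adjusted p = 0.0038) and 0.52 ± 0.09 (adjusted p = 0.0047). PSAP also had the highest level per kb of transcript of the 42 genes in GFP-DMSO, 6764 normalized counts per kb, and OPTN at 7.72 and CLN3 at 2.23 had the lowest.

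GLA, alpha-galactosidase A, was called lower in GFP cells at -0.32 ± 0.10 (adjusted p = 0.045) and was -0.27 ± 0.10 (adjusted p = 0.082) in HNF4G cells. Its call was lost without any 1 of the 4 GFP libraries or either HNF4G-DMSO library (adjusted p up to 0.27), and by edgeR and DESeq2. NAGLU, which cleaves heparan sulfate, was 1002 and 1020.3 in the GFP-DMSO libraries, 658 and 692 in the GFP-ABBV-075 libraries, 1002 and 668 in the HNF4G-DMSO libraries and 405 and 699.9 in the HNF4G-ABBV-075 libraries. The GFP groups were apart and the HNF4G groups overlapped, and it was not called at -0.58 ± 0.27 and -0.62 ± 0.27. It was called lower in both without the low-GC pair, at -0.58 ± 0.07 and -0.52 ± 0.10. GLB1, beta-galactosidase, ASAH1, acid ceramidase, HEXA, a subunit of beta-hexosaminidase, and GAA were not called in either line, with changes between -0.12 and 0.27.

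Of the 6 cathepsins, 1 was called higher and 1 lower in each cell line (16.7% each). These shares lay near those of all genes, 14.2% and 19.2% in GFP cells and 12.9% and 18.3% in HNF4G cells. CTSB, a cysteine protease, was 2947 and 3113 in the GFP-DMSO libraries, 4820.2 and 4723 in the GFP-ABBV-075 libraries, 3429.6 and 3009 in the HNF4G-DMSO libraries and 5238 and 5299 in the HNF4G-ABBV-075 libraries. It rose with no overlap by 0.66 ± 0.10 (adjusted p = 0.0019) and 0.71 ± 0.10 (adjusted p = 0.0014). CTSZ, a carboxypeptidase of the same family, was 3197 and 2891 in the GFP-DMSO libraries, 1616 and 1634 in the GFP-ABBV-075 libraries, 3154 and 2761 in the HNF4G-DMSO libraries and 1617 and 1670.4 in the HNF4G-ABBV-075 libraries. It fell with no overlap, 1.87-fold (log2 -0.90 ± 0.11, adjusted p = 0.00069) and 1.8-fold (-0.84 ± 0.11, adjusted p = 0.001). NELFCD, on the opposite strand over 6136 exonic bases of CTSZ, changed by -0.46 and -0.50. CTSL, CTSF and CTSA were not called, at 0.11, 0.01 and -0.25 in GFP cells and 0.03, -0.02 and -0.13 in HNF4G cells. CTSD, the main aspartic protease, was 1616 and 1493 in the GFP-DMSO libraries, 1799 and 1940.1 in the GFP-ABBV-075 libraries, 1278 and 597 in the HNF4G-DMSO libraries and 824 and 2043 in the HNF4G-ABBV-075 libraries. In the HNF4G groups it varied more between libraries of 1 group than between treatments in GFP cells, and the changes were 0.27 ± 0.44 and 0.57 ± 0.44, not called.

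Of 5 membrane proteins tested, 1 was called, higher in both lines (20.0%, against 14.2% and 12.9% of all genes). This was NPC1, the membrane partner of NPC2 in cholesterol export. It was 1021 and 1073 in the GFP-DMSO libraries, 1555 and 1631 in the GFP-ABBV-075 libraries, 1107 and 1176 in the HNF4G-DMSO libraries and 1754 and 1677 in the HNF4G-ABBV-075 libraries. The rise was 0.60 ± 0.10 (adjusted p = 0.003) and 0.59 ± 0.10 (adjusted p = 0.0038), with no overlap. RMC1, on the opposite strand over 619 exonic bases of NPC1, changed by 0.44 and 0.38. LAMP2, LAMP1, MCOLN1 and CLCN7, a chloride-proton exchanger, lay between -0.03 and 0.29 in GFP cells and between 0.15 and 0.38 in HNF4G cells. CLN3 was 13.5 and 12.1 in the GFP-DMSO libraries, 2.2 and 1.15 in the GFP-ABBV-075 libraries, 6.79 and 13 in the HNF4G-DMSO libraries and 6.79 and 5.15 in the HNF4G-ABBV-075 libraries, at a level where a few reads set the value. With no filter on low counts it was called lower in GFP cells (log2 -2.40 ± 0.48, adjusted p = 0.013) and not in HNF4G cells (-0.59 ± 0.48, adjusted p = 0.49). Of the fusion factors, TECPR1 was at 0.06 ± 0.26 and 0.52 ± 0.26 and PLEKHM1, an adaptor between ATG8 proteins and the fusion machinery, at 0.27 ± 0.23 and 0.34 ± 0.23, none called.

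The spread within the HNF4G groups followed the GC content of these transcripts. The log2 difference between number 1 and number 2 had an SD over the 41 genes of 0.38 in HNF4G-DMSO and 0.49 in HNF4G-ABBV-075, against 0.10 and 0.13 in the GFP groups. Against GC content, its Pearson r over 41 genes was 0.88 in HNF4G-DMSO and -0.88 in HNF4G-ABBV-075, and 0.16 and -0.15 in the GFP groups. The Spearman values were 0.87, -0.87, 0.08 and -0.08. Genes are not independent replicates, and all points of a group share the same pair of libraries. The median GC content was 51.3% for the 41 genes and 47.7% for all tested genes, 49.1% for the 11 genes higher in both lines and 55.9% for the 24 called in neither. CTSD differed the most, by 1.10 and -1.31.

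**Figure D3:**
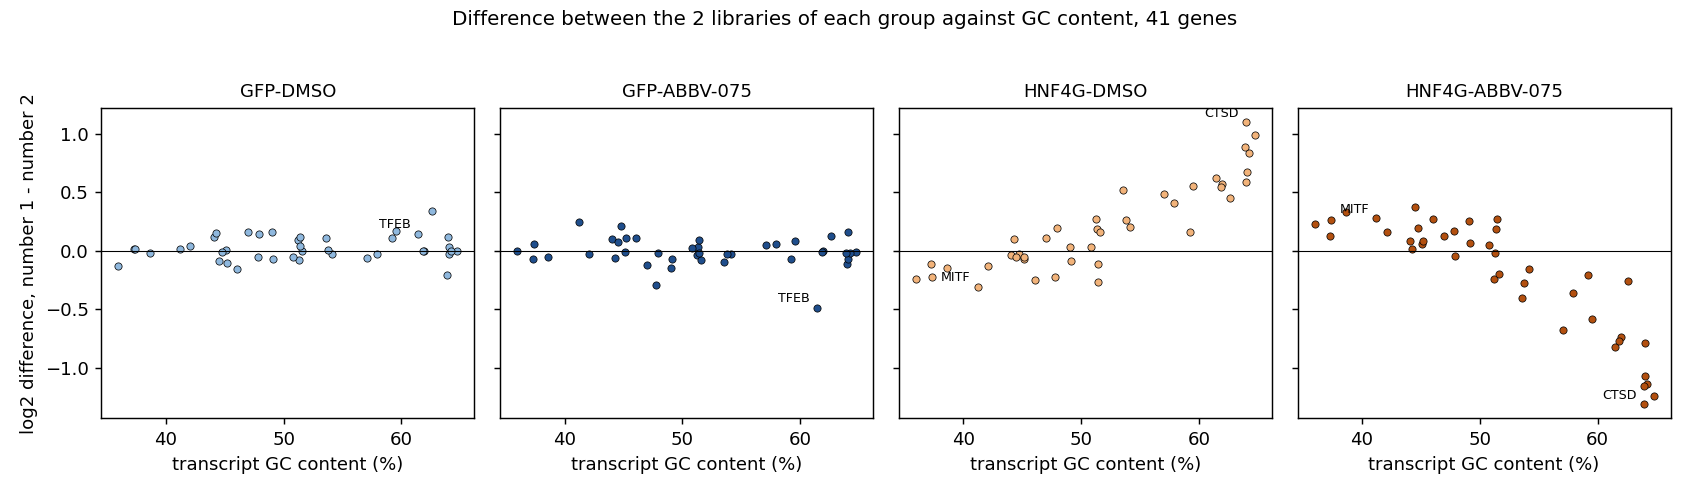
Log2 difference between number 1 and number 2 of each group against the GC content of the transcript (percent), 1 point per gene for 41 genes. The points lie near 0 in both GFP groups, rise with GC content to 1.10 in HNF4G-DMSO and fall to -1.31 in HNF4G-ABBV-075.

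With a correction of each library for GC content 29 of the 41 genes were called higher and 5 lower in GFP cells, where 31.1% and 24.0% of all genes were called. In HNF4G cells the counts were 28 and 4, with 30.7% and 23.7% of all genes. The median change in GFP cells was 0.40 with the correction. Called higher in both lines with the correction, and in neither line before it, were for example LAMP1 (0.22 and 0.22), LAMP2 (0.27 and 0.31), MCOLN1 (0.42 and 0.34) and CTSD (0.40 and 0.55). TFEB (-0.53 and -0.68) and NAGLU (-0.45 and -0.64) were called lower in both.

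Between HNF4G and GFP cells under the same treatment, OPTN was the single gene called. In DMSO, 0.783% of all genes were called higher and 0.117% lower in HNF4G cells, and in ABBV-075 1.64% and 0.336%. In DMSO, both HNF4G libraries lay above both GFP libraries for 7 genes (26.6% of all genes) and below for 9 (25.1%), and in ABBV-075 for 6 (24.1%) and 7 (20.4%). BNIP3L was next in DMSO, at 0.49 ± 0.12 (adjusted p = 0.14). PNMA2, on the opposite strand over 330 exonic bases of BNIP3L, differed there by 1.13 ± 0.13 (limma adjusted p = 0.0067). Without the low-GC pair, BNIP3L, CTSF and GLB1 were also called higher and ASAH1, CTSD and TECPR1 lower in DMSO (3.46% and 3.05% of all genes). In ABBV-075, ATG2A, CLCN7, CTSF, GAA, SQSTM1, TECPR1 and ULK1 were then also called higher, and ASAH1, GABARAPL2 and MAP1LC3B lower (9.38% and 8.43% of all genes).

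The change with ABBV-075 was compared directly between the cell lines by an interaction term, over the same 8 libraries. None of the 41 genes was called by limma, edgeR or DESeq2, and none had an unadjusted p under 0.05 in limma, with 0.0112% of all genes called higher and 0.0% lower. The smallest p was that of BNIP3L, whose change in HNF4G cells minus that in GFP cells was -0.33 ± 0.17 (unadjusted p = 0.084). HEXA (0.37 ± 0.20), TECPR1 (0.46 ± 0.36) and ATG9B (-0.41 ± 0.33) came next. The standard errors of the 41 differences ran from 0.13 to 0.62, and a p above the threshold does not show that the lines responded alike. With GC correction none of the 41 was called either. Without the low-GC pair, 1 library was left in each HNF4G group, so the interaction calls made then rest on single libraries and are not given. The median difference over the 41 genes was -0.01 in that setting.

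Other genes of the pathway, 171 in 8 lists of which 163 were tested, were set beside the 42. In GFP cells 37 were called higher (22.7%) and 16 lower (9.82%), against 14.2% and 19.2% of all genes tested, with a median change of 0.18. In HNF4G cells the counts were 33 (20.2%) and 14 (8.59%), against 12.9% and 18.3%, with a median of 0.19. Over the 8 lists the share called higher in GFP cells ran from 0% for sorting to 43.8% for the V-ATPase. Other lysosomal hydrolases moved both ways, with 8 higher and 6 lower of 32 in GFP cells and 10 and 6 in HNF4G cells. CTSV, a cathepsin close to CTSL, was 70.6 and 63.6 in GFP-DMSO and 277 and 269 in GFP-ABBV-075 and rose by 2.01 ± 0.16, and CTSK, known for bone matrix degradation, rose by 1.75 ± 0.23. GALC, galactosylceramidase, fell from 469 and 517 to 115 and 85.4 (-2.31 ± 0.18) and CTSC, which activates serine proteases, from 1562 and 1600.1 to 476 and 529 (-1.65 ± 0.15). All 4 were called in the same direction in HNF4G cells (1.18, 2.14, -2.76 and -1.62). CTSV was also the single gene of the 163 called between the cell lines, higher in HNF4G cells in DMSO (139 and 128, 0.98 ± 0.16, adjusted p = 0.04). That call was lost without any 1 of the 4 DMSO libraries or either GFP-ABBV-075 library, with a replicate block, with no filter, with quantile normalization and with only the 4 libraries compared (adjusted p up to 0.32). Its drug change differed between the lines by -0.83 ± 0.23 (unadjusted p = 0.0073, adjusted p = 1).

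The subunits of the V-ATPase, the proton pump of the lysosome, had 7 of 16 called higher in GFP cells (43.8%) and 3 in HNF4G cells (18.8%), and none lower. Over all genes 14.2% were called higher and 19.2% lower in GFP cells, and 12.9% and 18.3% in HNF4G cells. ATP6V0D1 rose by 0.53 ± 0.17 and ATP6V1D by 0.51 ± 0.11 in GFP cells. Both calls were lost without any 1 of the 4 GFP libraries (adjusted p up to 0.17 and 0.087), and that of ATP6V0D1 also with a replicate block, no filter or quantile normalization. Other lysosomal membrane proteins had 3 higher and 4 lower of 18, and 2 and 4 in HNF4G cells. Their shares in GFP cells, 16.7% and 22.2%, lay near those of all genes. LAMP3 rose by 1.25 ± 0.28 and PIP4P2 by 0.57 ± 0.15, while TPCN2, a cation channel, was lower at -0.80 ± 0.15, as was SLC17A5, the sialic acid exporter, at -0.40 ± 0.13. Genes that sort enzymes to lysosomes had none higher and 3 lower (23.1%) of 13, and 0 and 1 in HNF4G cells. NAGPA, which uncovers the mannose 6-phosphate tag, was at -0.99 ± 0.30 and AP1S1, an adaptor subunit, at -0.56 ± 0.10. The calls of SLC17A5 and NAGPA were lost without any 1 GFP library, with a replicate block and with no filter (adjusted p up to 0.25 and 0.17), and that of SLC17A5 also under 3 other scalings, by edgeR and by DESeq2. LAMP3 lost its call without number 1 of either GFP group (up to 0.089), PIP4P2 without any GFP library but GFP-ABBV-075 number 1 (up to 0.16), and TPCN2 without GFP-ABBV-075 number 1 (0.058).

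Of 22 genes of nutrient control, 3 were called higher and 1 lower in GFP cells and 4 and 1 in HNF4G cells. The shares in GFP cells were 13.6% and 4.55%, against 14.2% and 19.2% of all genes. RRAGC and RRAGB, Rag GTPases that place mTORC1 on the lysosome, rose by 0.83 ± 0.13 and 0.41 ± 0.12, and DEPTOR, an mTOR inhibitor, was at -0.75 ± 0.12. Other core autophagy proteins had 5 of 29 higher in GFP cells (17.2%) and 6 in HNF4G cells (20.7%), none lower. The rises in GFP cells were led by ZFYVE1 (0.84 ± 0.15) and the ATG8 protease ATG4A (0.73 ± 0.12). Among 14 other receptors, 4 were higher (28.6%) and 1 lower (7.14%), and 3 and 0 in HNF4G cells. CALCOCO1, a receptor for endoplasmic reticulum, rose from 1569 and 1498 to 3429 and 3603 (1.20 ± 0.10) and TOLLIP by 0.75 ± 0.23, and FUNDC1, a mitophagy receptor, was at -0.41 ± 0.13. Of 19 other fusion factors, 7 were higher (36.8%) and 1 lower (5.26%), and 5 and 2 in HNF4G cells. BORCS5 and BORCS7, subunits of a complex that moves lysosomes, were at 0.69 ± 0.11 and 0.69 ± 0.13. RILP, a Rab7 effector, was at -0.85 ± 0.24. In GFP cells RRAGB, TOLLIP, FUNDC1 and RILP lost their calls without any 1 GFP library, with a replicate block and with no filter (adjusted p up to 0.21, 0.18, 0.21 and 0.13). RRAGB also lost it without either HNF4G-DMSO library and by DESeq2, FUNDC1 with quantile normalization and by edgeR and DESeq2, and BORCS7 without number 2 of either GFP group (up to 0.062).

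**Figure D4:**
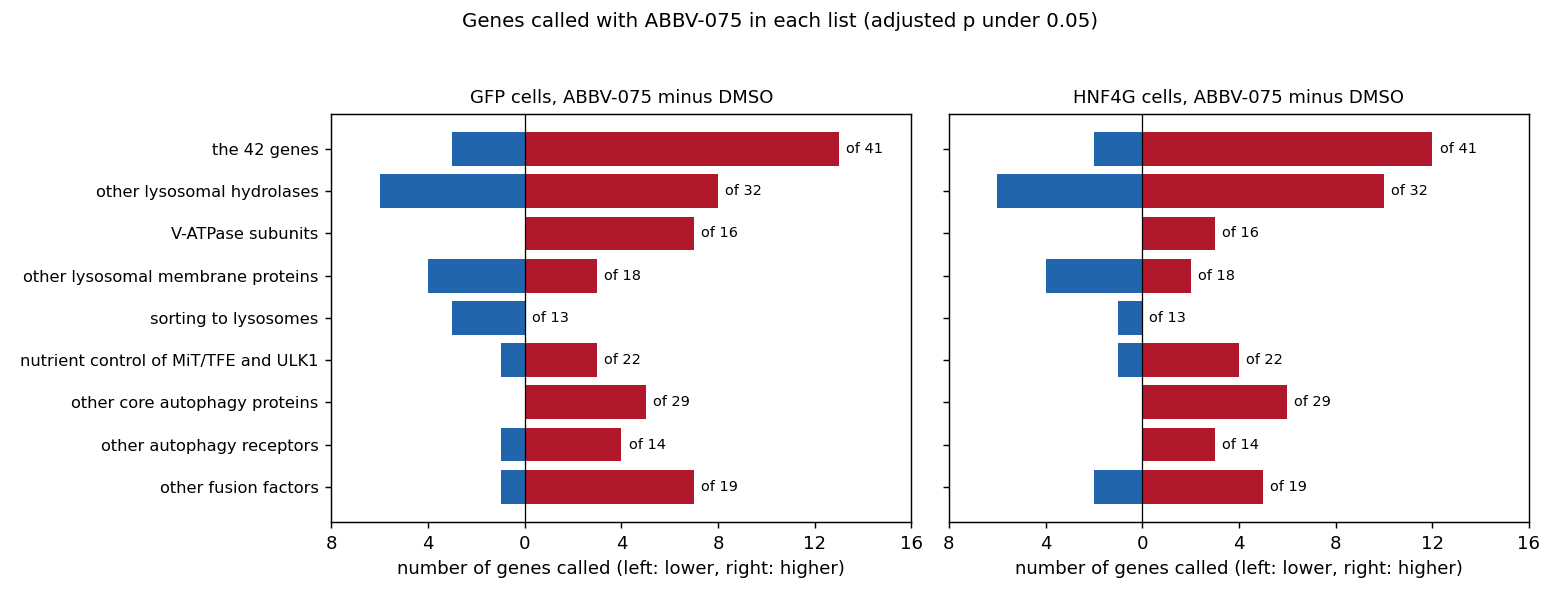
Number of genes called higher (red, right) and lower (blue, left) with ABBV-075 in GFP cells and in HNF4G cells, for the genes described here and 8 other lists of the pathway, with the number tested beside each bar. In GFP cells the V-ATPase list has 7 of 16 higher and none lower, and the list of other lysosomal hydrolases has 8 higher and 6 lower of 32.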

How the data were processed

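Poly-A RNA of 22Rv1 cells was sequenced from paired ends in 8 libraries, with groups as the labels give them (transgene and treatment). The authors aligned reads to hg38 with STAR (2.6 in the submitters' processing notes, another version in the methods). Which counter, strand setting, annotation and size factors were used is not given in the sources used here. Values in the deposited table are a signal, the normalized count, a gene's read number over a factor of its library, unscaled for length. Dividing by each library's step gave whole numbers (tolerance 0.01) for 100% of the values, so whole reads were recovered. These values are not log2 TPM, the unit the methods name.

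Of 57605 entries, 2 that repeated an identifier were dropped, and 17600 had no symbol. Tests covered the 17876 genes with a mean of at least 10, which took up 99.9% or more of the reads in any library. With limma 3.58.1 under R 4.3.3 and its trend option, log2(normalized count + 1) was modelled by 4 group means from all 8 libraries, with Benjamini-Hochberg adjustment over all genes and a threshold of 0.05. The fit was also run on simulated counts. These had the same dispersion in every library and no GC shift, so they do not cover the spread of the HNF4G groups. Alternatives on the recovered reads were the quasi-likelihood test of edgeR 4.0.16 and DESeq2 1.42.0. Others were pseudocounts of 0.5 and 8, other filters and scalings, a correction for GC content, a replicate block, fits of 4 libraries and leaving libraries out. On the recovered reads edgeR called 2607 genes higher and 3316 lower in GFP cells and 2524 and 3201 in HNF4G cells, and DESeq2 2037 and 2800, and 1879 and 2712.

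The 42 genes, the lists and the alternatives were chosen with earlier results of these data known. Values in every library were given for genes called with a log2 change of at least 1 with ABBV-075 or called between the cell lines, and for TFEB, TFE3 and MITF. The per-library values of other genes were added as examples of their role after their values were seen. From the other lists, at most 2 rises and 2 falls with a mean of at least 50 were named, the largest among genes called in GFP cells. GC content and positions came from GENCODE 44 on GRCh38, which is hg38, with GC content for 99.9% of tested genes, and promoters from RefSeq. CLN3 was tested only with no filter, and ASAH1, BNIP3L, CTSB, HEXA, LAMP2, NAGLU, PSAP and UVRAG had no promoter matched.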

Additional observations from a re-analysis of the deposited data

How the results depend on the processing

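NEU1, BNIP3L and ATG9B were called in both drug comparisons in every alternative in which they were tested, and OPTN in both comparisons of the cell lines. No called gene changed direction. Counts are given as higher and lower among the 41 genes, with the cause of each shift not tested. The counts over all 17876 genes moved as well. With only the 4 libraries compared they were 5164 higher and 5586 lower in GFP cells, and 889 and 1896 in HNF4G cells. In GFP cells the 13 and 3 became 29 and 5 with GC correction, 26 and 8 with only the 4 libraries compared, 26 and 8 when both low-GC libraries were left out, and 2 and 1 with an added log2 change of at least 1. In HNF4G cells the 12 and 2 became 28 and 4, 5 and 2, 23 and 5, and 2 and 1 under the same settings, and 1 was lower with a mean of at least 100, where ATG9B was not tested. Leaving out 1 library gave 9 to 16 and 2 to 5 in GFP cells and 9 to 16 and 2 to 4 in HNF4G cells, with 5 lower in GFP cells without either HNF4G-ABBV-075 library and 4 lower in HNF4G cells without its number 2. In DMSO, HNF4G against GFP cells, the 1 and 0 became 4 and 4 with GC correction, where 635 and 601 of all 17876 genes were called. In ABBV-075 they became 2 and 3 with GC correction, where 1123 and 1454 of all genes were called. The interaction, with 0 and 0, kept these counts with GC correction, where 14 and 3 of all genes were called. Without both low-GC libraries, calls in these comparisons rest on 1 library in each HNF4G group and are not counted. By edgeR the drug counts were 14 and 2 in each line, and by DESeq2 15 and 2, and 13 and 2. Over all genes, the share of calls that were higher moved from 42.5% to 56.5% in GFP cells and from 41.3% to 56.4% in HNF4G cells with GC correction.

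With the replicate number as a block, 11 genes were higher and 2 lower in each cell line, and no call between the cell lines changed. Over all genes the block gave 1894 higher and 2814 lower in GFP cells, and 1639 and 2668 in HNF4G cells. With the block and GC correction together the counts were 26 and 5 in GFP cells and 26 and 4 in HNF4G cells. Between the cell lines they were 2 and 0 in DMSO and 2 and 2 in ABBV-075. Over all genes they were 5220 and 4051, 5079 and 3997, 391 and 237, and 780 and 865 in the same order. The differences between number 1 and number 2 had an r from -0.59 to 0.13 between groups. The low-GC pair carries different numbers, so these values cannot show whether the numbers pair libraries. Swapping the numbers of the HNF4G-ABBV-075 libraries, chosen after seeing the data, gave 15 and 3, and 15 and 2. Over all genes the swap gave 2961 and 3797 in GFP cells, and 2809 and 3637 in HNF4G cells. A level near 10 counts, as for CLN3, sets the limit of depth.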
